A study of Rattus norvegicus with 8 samples.

Results

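Hnrnpa2b1, its closest relatives among the heterogeneous nuclear ribonucleoproteins (hnRNPs) and the Pur protein gene Pura were followed in BRL-3A cells, an established line from rat liver. The members were every non-control probe of the scanner files named for Hnrnpa2b1, Hnrnpa1, Hnrnpa3, Hnrnpab, Hnrnpd, Hnrnpdl or Pura, older spellings included, and each probe was analysed on its own. They came to 19 probes of 7 genes, out of 41012 probes on the array. The cells had been transfected with lipofectamine and were harvested at 48 h: 4 arrays carry RNA of cells given an siRNA named for the long noncoding RNA lnc19959.2 (siRNA), and 4 carry RNA of cells labelled NC. The title of the series names Purb and hnRNPA2B1 as interaction partners of lnc19959.2, so the comparison shows whether transcripts of that partner and its family differed when the noncoding RNA was targeted. No probe carried a name or accession of Purb, its paralog Purg or lnc19959.2 itself, and 19115 probes had no gene name here and were not searched by sequence for them, so neither the knockdown nor the second partner was analysed here.

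hnRNPs are abundant nuclear proteins that coat new transcripts and take part in splicing, export, stability and translation of RNA. The A/B hnRNPs (A1, A2/B1, A3, A/B, D and D-like) share a pair of RNA recognition motifs and a glycine-rich tail, and several of them regulate splicing of their own transcripts. Hnrnpa1 also has many processed pseudogenes in mammalian genomes. Pur proteins are a separate family that binds purine-rich single-stranded DNA and RNA, and Pur-alpha and Pur-beta, the products of Pura and Purb, are close paralogs.

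Each probe is a 60-base oligonucleotide, named here by its gene and by the base of its listed transcript at which it starts. Positions are those of the rn4 build in the scanner files. No exon or UTR annotation of that build was used. The sequences below are those on which the Hnrnpa2b1 result turns: the upstream probe of the gene, and 2 other probes on the array that share a run of identical bases with it. Shared runs were searched at a minimum of 20 bases for every member, which A_44_P974681 alone passed here. A_44_P220305 falls short of that minimum and was added by hand for its description. In the probe Hnrnpa2b1 579 (chr4:79702868-79703012, minus strand) the capitals mark the run of 42 bases that it shares with probe A_44_P974681 (chr4:27724317-27724376, minus strand), and in that probe they mark the same run. In A_44_P220305 (chr3:119168186-119168245, plus strand), whose listed transcript is described as similar to hnRNP A2/B1, they mark the longest run shared with Hnrnpa2b1 579, of 16 bases. Bases outside that run match too, and in the ungapped alignment 31 of 35 bases are identical. The 60 bases of Hnrnpa2b1 579 lay over 145 bases of the genome, so the probe crosses at least 1 gap in the alignment, whereas those of A_44_P974681 and A_44_P220305 lay over 60.
Hnrnpa2b1 579: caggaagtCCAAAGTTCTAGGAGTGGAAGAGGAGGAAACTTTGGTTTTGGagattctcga
A_44_P974681: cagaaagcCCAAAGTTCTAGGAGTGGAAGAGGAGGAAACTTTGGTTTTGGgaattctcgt
A_44_P220305: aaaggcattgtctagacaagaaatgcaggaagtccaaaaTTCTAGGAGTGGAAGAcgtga

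The probe Hnrnpa1 328 shared a run of at least 20 bases with 5 other probes, none with a gene symbol here and 3 of them described in the files as similar to hnRNP A1. The longest run was 35 bases with A_44_P218229, 26 with A_44_P806641 and 22 with A_44_P791184.

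A level below is the log2 of the background-subtracted spot intensity minus the array's 75th percentile, so that 0 is the level of that percentile, and a change is the siRNA mean minus the NC mean. Levels of different probes cannot be set against each other, since probes bind with different strength. Of the 41012 probes, 24853 were well above background in 3 or more arrays of either group and were tested with limma, with Benjamini-Hochberg adjustment over all of them. On these, 29.4% were called higher and 32.2% lower at an adjusted p under 0.05, 61.6% in all, so a call by itself was the usual outcome. Between 55.4% and 59.1% of probes were well above background on siRNA arrays, against 57.3% to 64.1% on NC arrays. All siRNA arrays share 1 scan identifier and all NC arrays share another. The scan, any slide that goes with it, and treatment therefore cannot be told apart. The labels do not say whether the 4 arrays of a group came from separate cultures, so the spread behind each p-value is that between arrays and may be technical. Of 20 hepatocyte markers, 11 were measured, while the secreted liver proteins Alb, Ttr and Tf and the enzymes Tat and Pck1 were among 7 genes above background on no array. Of these 11 hepatocyte genes 3 were called higher in siRNA cells and 6 lower, each read from its brightest probe, beside 35.7% higher and 29.1% lower of all named genes measured. Cyp2e1 changed by 4.94 and Apoa1 by -4.45, and Asgr1 was well above background on no siRNA array and on all 4 NC arrays. Hnf4a went the other way, with all 4 siRNA arrays and 1 NC array well above background. Of 10 measured fibroblast and stellate markers 5 were called higher and 1 lower, of 6 endothelial markers 3 and 3, of 3 cholangiocyte markers 1 and 2, and of 2 leukocyte markers 0 and 1. Among them Col3a1 changed by 2.66 and Cd68 by -2.40, and Vwf was well above background on no siRNA array and on all 4 NC arrays. Cdh5, also endothelial, was the reverse, well above background on all 4 siRNA arrays and on no NC array. The part of these shifts in the changes of the members was not tested.

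All 19 member probes were well above background on all 8 arrays and were tested. Of them 13 were called higher in siRNA cells, 2 lower and 4 neither, so that 15 of 19 were called, beside 61.6% of all probes tested (29.4% higher and 32.2% lower). All 4 siRNA arrays lay above all 4 NC arrays at 11 of the 19 probes, a pattern seen at 28.2% of all probes tested, and all lay below at 1, beside 29.9% of all probes. The median change of the 19 probes was 0.25, beside -0.03 over all probes tested. The direction of a change is relative to the array's 75th percentile. Scaling to the spike-in controls instead moved the median change of all tested probes upward by 0.54, to 0.51, so that the changes of the 2 probes called lower, Hnrnpa1 328 and Hnrnpdl 719, became 0.17 and 0.27. On that scale 18 of the 19 member probes were called higher and 0 lower, beside 16358 higher and 2681 lower of the 24853 probes tested. With normexp background correction 5 of the 19 probes were called, all of them higher, beside 14.6% of all probes called and 7.79% called higher in that fit.

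**Figure D1:**
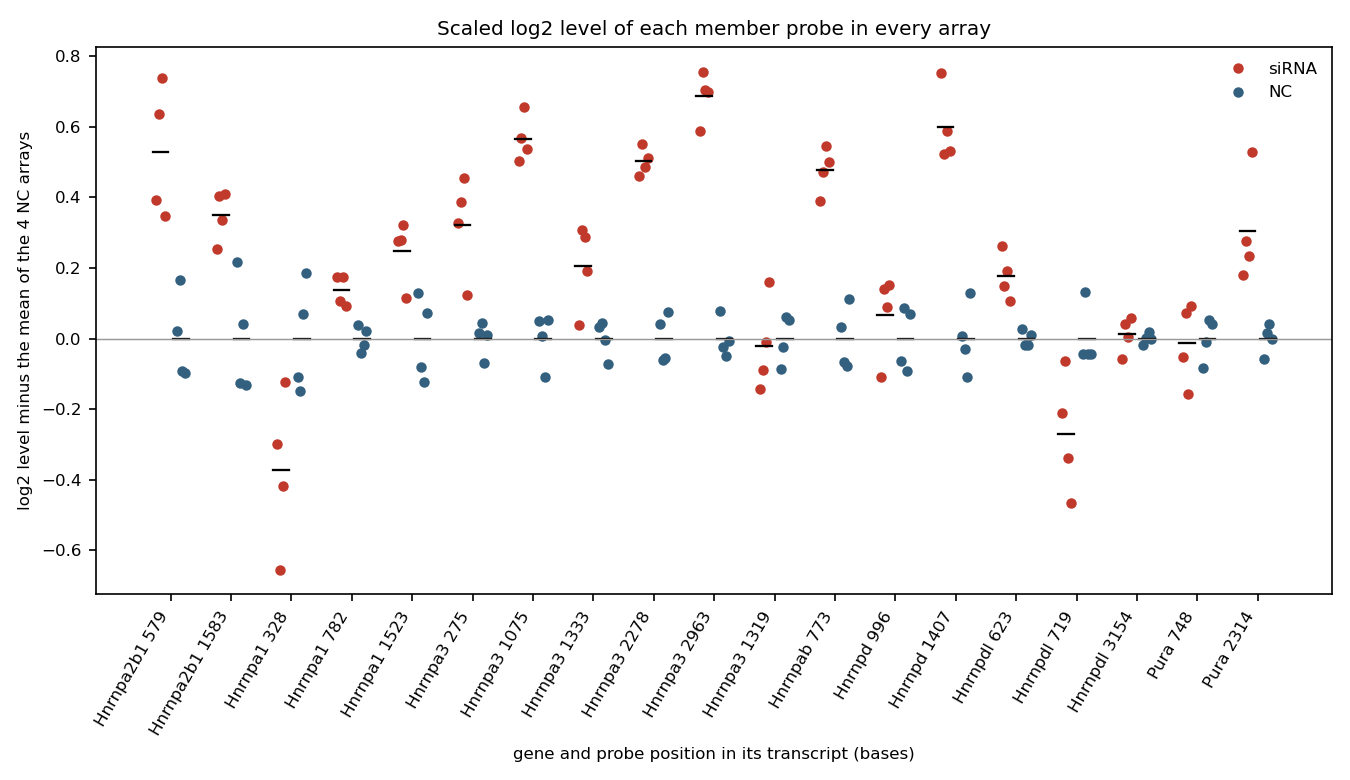
Scaled log2 level of each of the 19 member probes in every array, as the difference from that probe's mean over the NC arrays (y axis), with siRNA arrays (red) left of NC arrays (blue) and a bar at each group's mean. At 11 probes the siRNA arrays lie above all NC arrays, at Hnrnpdl 719 they lie below, and at 7 probes the groups overlap.

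Hnrnpa2b1 encodes the A2 and B1 proteins, which bind RNA motifs that sort transcripts and microRNAs, and was higher in siRNA cells at both of its probes. At Hnrnpa2b1 579, the levels were 3.29, 3.53, 3.63 and 3.24 in siRNA cells, against 2.92, 3.06, 2.81 and 2.80 in NC cells. The lowest siRNA array was above the highest NC array, and siRNA arrays 2 and 3 stood above the other two. The change was 0.53 ± 0.11 (SE, adjusted p = 0.00313), or 1.44-fold, with a 95% interval of 0.28 to 0.77. This probe stayed higher and called in all 12 alternative settings that keep every array, in which its change was 0.41 to 1.07.

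At Hnrnpa2b1 1583 (chr4:79696866-79696925, minus strand), which lies 6087 bases further along the gene and is listed only for a cDNA clone, the levels were -1.56, -1.42, -1.48 and -1.41 in siRNA cells and -1.60, -1.95, -1.78 and -1.95 in NC cells. The groups did not overlap, though siRNA array 1 was close to NC array 1. The change was 0.35 ± 0.09 (SE, adjusted p = 0.00908), or 1.28-fold. This spot was dim, with processed intensities of 97.7 to 121 in siRNA cells and 66.2 to 85.9 in NC cells, and with normexp its change was -0.02 (adjusted p = 0.947). The difference in change between the Hnrnpa2b1 probes was 0.18 ± 0.13 (SE) and was not called (adjusted p = 0.322 over the 4801 pairs of probes of one gene), and its sign turned with quantile normalization (-0.07, adjusted p = 0.714).

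The probes that share bases with Hnrnpa2b1 579 were picked after its values had been seen, so their values are given without a test. At A_44_P974681, with 55 of 60 bases identical in the ungapped alignment, the levels were 2.43, 2.63, 2.63 and 2.43 in siRNA cells, against 1.98, 2.08, 1.91 and 1.93 in NC cells. At A_44_P220305 they were 2.96, 3.11, 3.27 and 2.96 in siRNA cells, against 2.61, 2.62, 2.34 and 2.37 in NC cells. Neither pair of groups overlapped, and the changes were 0.56 ± 0.07 and 0.59 ± 0.10 (SE). Over the 8 arrays both followed Hnrnpa2b1 579 closely, with r = 0.98 each, and deviations from the group means had r = 0.97 for A_44_P974681 and 0.91 for A_44_P220305. These arrays share the RNA and the hybridisation, and whether the 3 probes catch the same transcripts was not tested.

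Hnrnpa1 encodes the best studied member, a shuttling protein that silences exons and binds telomeric and viral RNA, and its 3 probes did not move together. At the probe nearest the 5′ end, Hnrnpa1 328, the levels were 2.66, 2.31, 2.54 and 2.84 in siRNA cells, against 2.85, 2.81, 3.03 and 3.15 in NC cells. The siRNA mean was lower, but siRNA array 4 lay above NC array 2. The change was -0.37 ± 0.13 (SE, adjusted p = 0.0318), and its sign turned under spike-in scaling (0.17). It was called lower in 6 of the 12 alternative settings that keep every array. It was no longer called without siRNA array 2 (-0.28, adjusted p = 0.0657), siRNA array 3 (-0.36, adjusted p = 0.0693), NC array 3 (-0.35, adjusted p = 0.0752) or NC array 4 (-0.31, adjusted p = 0.0771).

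At Hnrnpa1 782 (chr7:142153181-142153240, plus strand) the levels were 2.85, 2.78, 2.85 and 2.77 in siRNA cells, against 2.72, 2.64, 2.66 and 2.70 in NC cells. The groups did not overlap and both were tight, but the change was small, 0.14 ± 0.04 (SE, adjusted p = 0.0288). At Hnrnpa1 1523 (chr7:142154344-142154404, plus strand) they were 4.88, 4.89, 4.93 and 4.72 in siRNA cells, against 4.73, 4.53, 4.48 and 4.68 in NC cells. Here siRNA array 4 lay just below NC array 1, and the change was 0.25 ± 0.08 (SE, adjusted p = 0.0220). Under quantile normalization the change was 0.02 at Hnrnpa1 782 and 0.11 at Hnrnpa1 1523, neither called. In all, Hnrnpa1 782 was called in 5 and Hnrnpa1 1523 in 6 of the 12 settings that keep every array. Hnrnpa1 782 was also not called without siRNA array 1 or 3 or NC array 2 or 3 (adjusted p = 0.0645 to 0.0819), nor Hnrnpa1 1523 without siRNA array 1, 2 or 3 or NC array 2 or 3 (adjusted p = 0.0506 to 0.0615).

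The 5′ probe differed from both others within the same arrays, a difference that scaling by 1 factor per array cannot alter. Its change was lower by 0.51 ± 0.12 (SE) than that of Hnrnpa1 782 (adjusted p = 0.0140) and lower by 0.62 ± 0.16 (SE) than that of Hnrnpa1 1523 (adjusted p = 0.0162). With normexp the first of these was no longer called (-0.47, adjusted p = 0.0747), while quantile normalization, added for pairs of probes after seeing the data, gave -0.50 (adjusted p = 0.0156) and -0.60 (adjusted p = 0.0168). The downstream probes differed from each other by 0.11 ± 0.06 (SE), not called (adjusted p = 0.188).

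The 5 other probes that share a run of 21 to 35 bases with Hnrnpa1 328 lie on other chromosomes, and all had lower means in siRNA cells, with changes between -0.53 and -0.43. Spike-in scaling lifts every change by 0.54, which brings all 5 above 0. At A_44_P218229 the levels were 2.58, 2.28, 2.42 and 2.78 in siRNA cells, against 2.80, 2.75, 3.04 and 3.18 in NC cells. At A_44_P806641 they were 2.535, 2.235, 2.143 and 2.640 in siRNA cells, against 2.718, 2.708, 2.937 and 3.101 in NC cells. At A_44_P791184 they were 1.83, 1.55, 1.70 and 2.03 in siRNA cells, against 2.14, 2.15, 2.36 and 2.55 in NC cells. The order of the arrays was much the same at each: siRNA array 4 was the highest of its group, and NC arrays 3 and 4 the highest of theirs. The r with Hnrnpa1 328 over the 8 arrays was 0.95 to 0.99, and 0.87 to 0.98 after removing the group means. At 4 of these 5 probes the groups did not overlap, A_44_P218229 being the exception. They too were picked by sequence after the values were known, and the part that cross-hybridisation has in Hnrnpa1 328 was not tested.

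Hnrnpa1 782 shared 28 bases with A_44_P575559, a probe with no gene symbol or position, whose change was 0.39 ± 0.10 (SE), and Hnrnpa3 275 shared 28 bases with A_44_P269675 (chr2:120933858-120933917, minus strand), whose change was 0.22 ± 0.07 (SE). The other 15 member probes shared no run of 20 or more bases with another probe.

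**Figure D2:**
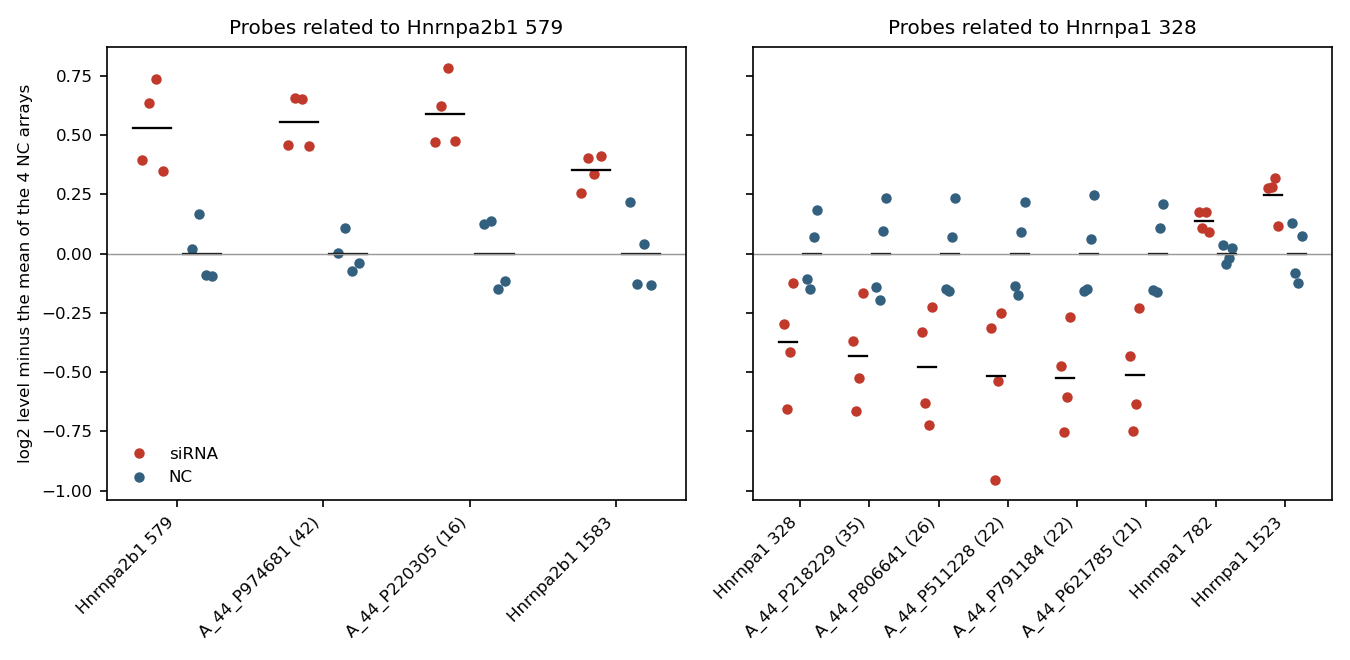
Scaled log2 level minus the mean of the NC arrays (y axis) in siRNA arrays (red, left) and NC arrays (blue, right) for Hnrnpa2b1 579 and Hnrnpa1 328, for the probes that share bases with each (length of the longest shared run in brackets), and for the remaining probes of the same genes. The probes that share bases with Hnrnpa1 328 lie low in siRNA arrays like it, whereas Hnrnpa1 782 and Hnrnpa1 1523 lie high. All of this is on the 75th percentile scale, and spike-in scaling turns Hnrnpa1 328 to 0.17 and the probes that share bases with it above 0.

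Hnrnpa3 encodes a shuttling A/B protein close to A2/B1, which binds the same trafficking element. It has 6 probes, of which 5 were called higher in siRNA cells and 1 was not called, with changes of -0.02 to 0.69. The largest change was at Hnrnpa3 2963 (chr3:58358638-58358697, plus strand), with 3.005, 3.172, 3.122 and 3.115 in siRNA cells and 2.494, 2.393, 2.368 and 2.410 in NC cells. The gap between the groups was far wider than the spread in either, and the change was 0.69 ± 0.05 (SE, adjusted p = 3.3e-05), or 1.61-fold.

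Hnrnpa3 1075 (chr3:58356570-58356629, plus strand) had 5.60, 5.67, 5.76 and 5.64 in siRNA cells and 5.15, 5.11, 4.99 and 5.15 in NC cells, a change of 0.57 ± 0.06 (SE, adjusted p = 0.000111). Hnrnpa3 2278 (chr3:58357953-58358012, plus strand) had 5.56, 5.66, 5.59 and 5.62 in siRNA cells and 5.15, 5.04, 5.05 and 5.18 in NC cells, a change of 0.50 ± 0.05 (SE, adjusted p = 0.000109). Neither probe's groups overlapped, and together with Hnrnpa3 2963 both stayed higher and called in all 12 alternative settings that keep every array.

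The remaining probes moved less. Hnrnpa3 275 (chr3:58354546-58354605, plus strand) had 2.27, 2.33, 2.40 and 2.07 in siRNA cells and 1.96, 1.99, 1.87 and 1.95 in NC cells, a change of 0.32 ± 0.08 (SE, adjusted p = 0.00698). Hnrnpa3 1333 (chr3:58357008-58357065, plus strand), the brightest, had 6.07, 6.34, 6.32 and 6.22 in siRNA cells and 6.06, 6.07, 6.03 and 5.96 in NC cells. There the lowest siRNA array overlapped NC, and the change was 0.21 ± 0.07 (SE, adjusted p = 0.0323). It was no longer called in 7 of the 8 fits that each left out 1 array (adjusted p = 0.0518 to 0.0851), the exception being the fit without siRNA array 1, and was called in 5 of the 12 settings that keep every array, with 0.09 under cyclic loess (adjusted p = 0.324). At Hnrnpa3 1319 (chr3:58359606-58359665, plus strand), the probe furthest along the gene, whose position is counted in another listed transcript, the levels were 1.64, 1.69, 1.77 and 1.94 in siRNA cells and 1.69, 1.75, 1.84 and 1.83 in NC cells. The groups overlapped fully, with a change of -0.02 ± 0.08 (SE, adjusted p = 0.831) and a 95% interval of -0.20 to 0.15.

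Of the 15 pairs of Hnrnpa3 probes, 9 differed in their change at an adjusted p under 0.05. Over the array, 38.3% of the 4801 pairs of probes of one gene differed by the same rule, and 14 of the 24 pairs among all members did. The widest gap, 0.71 ± 0.08 (SE, adjusted p = 0.000587), was between Hnrnpa3 2963 and Hnrnpa3 1319, at 4092 and 5060 bases along the gene from its first probe. Hnrnpa3 1333 also changed less than its neighbours on either side, by 0.36 ± 0.07 (SE) than Hnrnpa3 1075 (adjusted p = 0.00425) and by 0.30 ± 0.07 (SE) than Hnrnpa3 2278 (adjusted p = 0.0157; 0.0614 with normexp). The scanner files list 3 curated RefSeq transcripts for the gene. Hnrnpa3 275 is listed for all 3, Hnrnpa3 1075 and Hnrnpa3 1319 for 2 each, and Hnrnpa3 1333, Hnrnpa3 2278 and Hnrnpa3 2963 for 1, the same one. Hnrnpa3 1319 is listed for that transcript too, so the probes with the largest and the smallest change share a listed transcript.

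**Figure D3:**
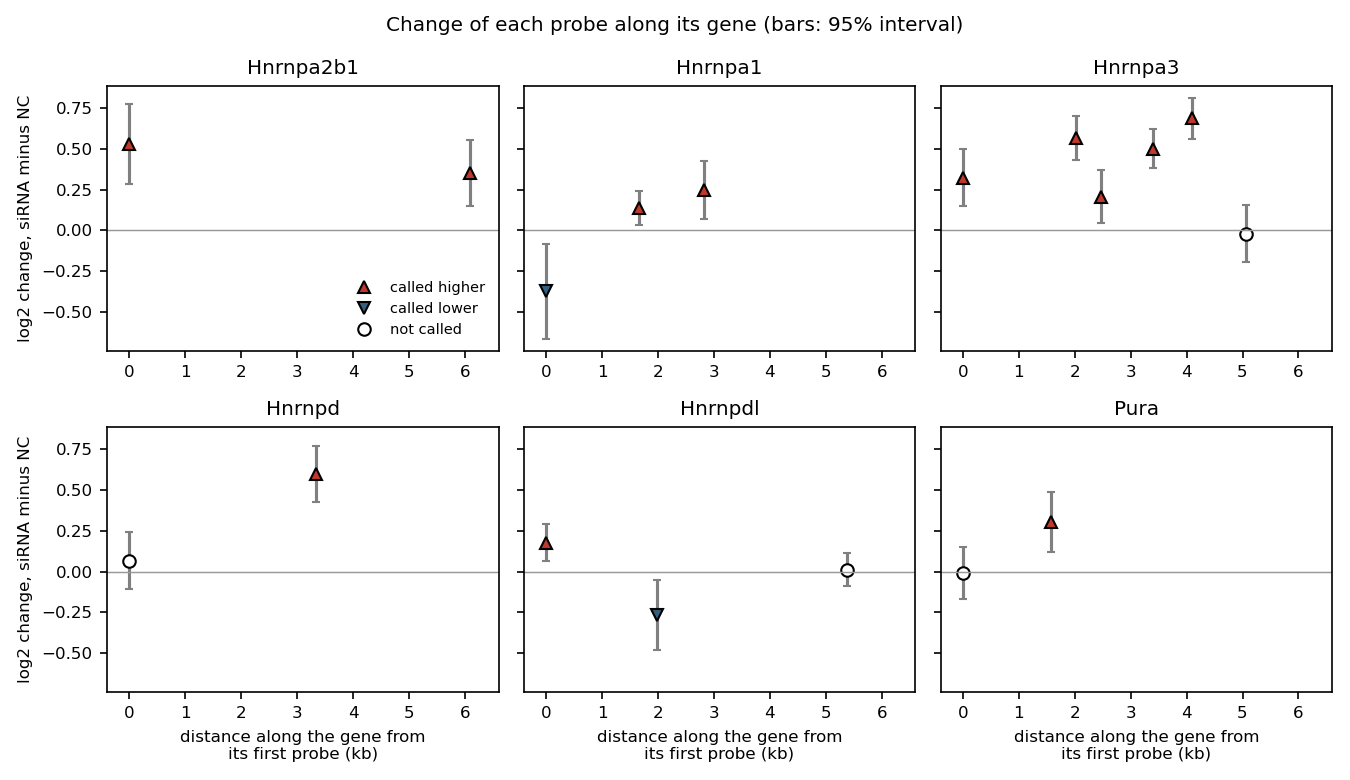
Log2 change, siRNA minus NC, of each probe (y axis, bars are 95% intervals from limma) against its distance along the gene from the probe nearest the 5′ end (x axis, kb), for the 6 members with more than 1 probe. Hnrnpa1 runs from -0.37 to 0.25 and Hnrnpa3 from 0.69 down to -0.02 at its last probe, whereas both Hnrnpa2b1 probes are high; spike-in scaling lifts every point by 0.54, which turns Hnrnpa1 328 and Hnrnpdl 719 above 0.

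Hnrnpab, whose product binds RNA and single-stranded DNA and is also known as CBF-A, has 1 member probe, Hnrnpab 773 (chr10:37120706-37120765, minus strand). Its levels were 5.25, 5.33, 5.41 and 5.36 in siRNA cells, against 4.90, 4.80, 4.78 and 4.97 in NC cells. The groups were well apart, and the change was 0.48 ± 0.06 (SE, adjusted p = 0.000338), or 1.39-fold. A further probe, A_44_P106037, names Hnrnpab only through its accession and is no member. It was seen after its values were known and went the other way, with -2.79, -3.05, -2.88 and -2.97 in siRNA cells and -2.43, -2.58, -2.23 and -2.01 in NC cells, a change of -0.61 ± 0.13 (SE), at processed intensities of at most 64.4.

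Hnrnpd encodes AUF1, which binds AU-rich elements and speeds the decay of many short-lived transcripts. Its probe Hnrnpd 1407 (chr14:10935692-10935751, plus strand) had 2.88, 2.65, 2.71 and 2.66 in siRNA cells and 2.13, 2.09, 2.01 and 2.25 in NC cells. The groups were far apart, and the change was 0.60 ± 0.07 (SE, adjusted p = 0.000281), or 1.51-fold. Hnrnpd 996 (chr14:10932363-10932963, plus strand) had 2.28, 2.52, 2.47 and 2.53 in siRNA cells and 2.32, 2.47, 2.29 and 2.45 in NC cells. These groups overlapped, with a change of 0.07 ± 0.08 (SE, adjusted p = 0.464). Within arrays the downstream probe's change was higher by 0.53 ± 0.11 (SE, adjusted p = 0.00715). Both probes are listed for the same 4 curated RefSeq transcripts. The 60 bases of Hnrnpd 996 lie over 601 bases of the genome and those of Hnrnpd 1407 over 60.

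Hnrnpdl encodes the D-like protein, whose gene, like Hnrnpd, yields several splice forms. Its probes gave 3 different outcomes. Hnrnpdl 623 (chr14:10860801-10860860, plus strand) had 3.69, 3.58, 3.62 and 3.54 in siRNA cells and 3.46, 3.41, 3.41 and 3.44 in NC cells, without overlap. Hnrnpdl 719 (chr14:10862779-10862838, plus strand) had 1.62, 1.77, 1.49 and 1.36 in siRNA cells and 1.79, 1.96, 1.79 and 1.79 in NC cells, again without overlap but with siRNA low. The change was 0.18 ± 0.05 (SE, adjusted p = 0.0136) at Hnrnpdl 623 and -0.27 ± 0.09 (SE, adjusted p = 0.0349) at Hnrnpdl 719, and the sign at Hnrnpdl 719 turned under spike-in scaling (0.27) and under median scaling over all probes (0.04). Hnrnpdl 623 lost its call in 5 of the 12 settings that keep every array. Its change was 0.07 (adjusted p = 0.190) under cyclic loess, 0.08 (adjusted p = 0.152) under quantile normalization, 0.10 (adjusted p = 0.0873) with the 75th percentile over bright probes and 0.47 (adjusted p = 0.145) with normexp, with or without dimmer spots. Hnrnpdl 719 was also no longer called in 7 of the 8 fits that each left out 1 array (adjusted p = 0.0503 to 0.0908), the exception being the fit without siRNA array 2.

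At Hnrnpdl 3154 (chr14:10866181-10866240, plus strand) the levels were 2.44, 2.54, 2.50 and 2.55 in siRNA cells and 2.48, 2.50, 2.51 and 2.49 in NC cells, with no separation. The change was 0.01 ± 0.04 (SE, adjusted p = 0.834), with a 95% interval of -0.09 to 0.11. The change at Hnrnpdl 719 was lower than that at Hnrnpdl 623 by 0.45 ± 0.09 (SE, adjusted p = 0.00622), while the other 2 pairs of Hnrnpdl probes did not pass (adjusted p = 0.0552 and 0.0805). The bases of Hnrnpdl 623 were found, on the same strand, at 238 to 179 bases before 1 of the 2 Hnrnpdl start sites for which a RefSeq promoter window was given (chr14:9862416-9862475 in GRCr8, a different build from that of the other positions). The probe therefore lies upstream of that start site, and the start sites are 938 bases apart. It starts at base 623 of its listed transcript, and whether it lies within a transcript from the other start site was not examined. No other member probe matched any promoter window.

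Pura encodes Pur-alpha, the paralog of the named partner Pur-beta. Pura 748 (chr18:28923116-28923175, plus strand), listed for the Ensembl transcript of Pur-alpha, had 3.50, 3.63, 3.40 and 3.65 in siRNA cells and 3.47, 3.55, 3.61 and 3.60 in NC cells. The groups overlapped, and the change was -0.01 ± 0.07 (SE, adjusted p = 0.895), with a 95% interval of -0.17 to 0.15. Pura 2314 (chr18:28924682-28924741, plus strand) had 1.72, 1.82, 1.78 and 2.07 in siRNA cells and 1.48, 1.56, 1.58 and 1.54 in NC cells. These groups did not overlap, siRNA array 4 was the highest, and the change was 0.30 ± 0.08 (SE, adjusted p = 0.0108). It was not called under cyclic loess (0.21, adjusted p = 0.0640), the 75th percentile over bright probes (0.23, adjusted p = 0.0553) or normexp (0.34, adjusted p = 0.184). Within arrays the change of Pura 2314 exceeded that of Pura 748 by 0.32 ± 0.06 (SE, adjusted p = 0.00612). With normexp the change of Pura 748 minus that of Pura 2314 was -0.07 and not called (adjusted p = 0.700).

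To compare Hnrnpa2b1 with the other members, the difference between Hnrnpa2b1 579 and the brightest probe of each other gene was taken in every array and set between the groups with a two-sided exact permutation test over the 70 ways to regroup the arrays. The Hnrnpa2b1 change exceeded that of Pura by 0.54 ± 0.16 (SE) and that of Hnrnpa3 by 0.32 ± 0.08 (SE), each at an exact permutation p of 0.0286, the smallest that 4 arrays against 4 can give, and at 0.0857 after adjustment over the 6 comparisons. It exceeded Hnrnpdl by 0.35 ± 0.12 (SE, exact p = 0.0571) and Hnrnpa1 by 0.28 ± 0.11 (SE, exact p = 0.0857). Against Hnrnpab the difference was 0.05 ± 0.12 (SE) and against Hnrnpd -0.07 ± 0.15 (SE), each at an exact p of 0.657. So 0 of 6 comparisons passed after adjustment and 2 of 6 were under 0.05 before it. With a smallest p of 0.0286, a single comparison could not pass the adjustment however large its difference. The count of 0 therefore does not show that Hnrnpa2b1 changed like the other members. The direction against Hnrnpa3 turns with the probe: the brightest, Hnrnpa3 1333, changed by 0.21, but Hnrnpa3 2963 by 0.69 and Hnrnpa3 1075 by 0.57, both more than the 0.53 of Hnrnpa2b1 579, and Hnrnpa3 2278 by 0.50. For Pura the brightest probe changed by -0.01 and the other by 0.30. These other probes were not tested against Hnrnpa2b1 579.

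Over the 8 arrays, the 5 named genes whose brightest probe was most like Hnrnpa2b1 579, among 10846 compared, were Becn1 (r = 0.99), Lemd2 (r = 0.99), Psmg2 (r = 0.98), Dgcr2 (r = 0.98) and Ptpn3 (r = 0.98). Their products are an autophagy protein, an inner nuclear membrane protein, a proteasome assembly chaperone, a membrane protein and a protein tyrosine phosphatase. After removing the group means, r was 0.94 for Becn1, 0.97 for Lemd2, 0.90 for Psmg2, 0.95 for Dgcr2 and 0.88 for Ptpn3. Dgcr2 was dim, at -3.68 in siRNA cells and -4.04 in NC cells, and its change of 0.36 became -0.36 with normexp. The change of Lemd2 fell from 0.65 to 0.0032 with normexp, and that of Becn1 from 0.12 to -0.0071 with quantile normalization. Lemd2, Psmg2 and Ptpn3 kept their direction in all 12 settings that keep every array. Among the members the r with Hnrnpa2b1 579 was 0.91 for Hnrnpa3, 0.87 for Hnrnpab, 0.81 for Hnrnpd, 0.80 for Hnrnpa1, 0.79 for Hnrnpdl and -0.30 for Pura. In the same order they ranked 457, 1558, 2602, 2826, 2906 and 6594 by r, so many genes outside the family were more like Hnrnpa2b1 579. All of these points share the arrays and the group difference, and the values are a description.

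The related genes were read from the brightest kept probe of each gene. By that rule 35.7% of the 10915 named genes measured were called higher and 29.1% lower, with a median change of 0.04. Among the members 6 of 7 genes were called higher and none lower, with a median change of 0.25. Of 21 other hnRNP genes measured, 11 were called higher and 1 lower, with a median of 0.21. The highest was Raly, an hnRNP C relative, with a change of 1.30 ± 0.12 (SE, adjusted p = 7.95e-05). Raly averaged 4.85 ± 0.08 in siRNA cells and 3.55 ± 0.25 in NC cells (SD, n = 4 each). This change exceeded those of all 19 member probes and kept its direction in all 12 alternative settings. Tardbp, which encodes TDP-43, was the 1 called lower, by -0.26 ± 0.07 (SE, adjusted p = 0.0141), with the sign turned under spike-in scaling (0.29).

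Proteins that import or modify A/B hnRNPs were measured in 7 genes, of which 5 were called higher and 2 lower, with a median change of 0.20. Prmt1, which methylates arginines in their glycine-rich tails, averaged 5.95 ± 0.08 in siRNA cells and 5.42 ± 0.15 in NC cells (SD, n = 4 each), a change of 0.52 ± 0.08 (SE, adjusted p = 0.0011). Mknk1, a kinase that phosphorylates hnRNP A1, changed by -0.59 ± 0.15 (SE, adjusted p = 0.0115), and the import receptor Tnpo2 by -0.33 ± 0.05 (SE, adjusted p = 0.000946). Spike-in scaling left Mknk1 at -0.05 and turned Tnpo2 to 0.21.

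Of the 8 AU-rich element binding proteins besides AUF1, 3 were called higher and 2 lower, with a median of 0.09. Zfp36, the decay factor tristetraprolin, averaged -2.32 ± 0.26 in siRNA cells and -1.62 ± 0.15 in NC cells (SD, n = 4 each), a change of -0.70 ± 0.14 (SE, adjusted p = 0.00286). Spike-in scaling left Zfp36 at -0.16. Its relatives went the other way at their brightest probes: Zfp36l2 changed by 0.26 ± 0.07 (SE, adjusted p = 0.0122) and Zfp36l1 by 0.20 ± 0.07 (SE, adjusted p = 0.0311). The other kept probe of Zfp36l2 changed by only 0.02. The splicing and decay factor Celf1 changed by -0.21 ± 0.07 (SE, adjusted p = 0.0290), with the sign turned under spike-in scaling (0.33).

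hnRNPA2B1 is also known as a reader of N6-methyladenosine (m6A) that acts with the microRNA microprocessor. Of 16 genes of these machineries measured, 4 were called higher and 6 lower, with a median change of -0.04. Both microprocessor subunits were among the higher ones, Drosha with 0.30 ± 0.06 (SE, adjusted p = 0.00349) and Dgcr8 with 0.26 ± 0.06 (SE, adjusted p = 0.00846). The m6A reader Ythdf3 averaged -0.96 ± 0.19 in siRNA cells and 0.03 ± 0.04 in NC cells (SD, n = 4 each), a change of -0.99 ± 0.09 (SE, adjusted p = 7.44e-05). Zc3h13, part of the methyltransferase complex, changed by -0.56 ± 0.06 (SE, adjusted p = 0.000149). Both stayed below 0 under spike-in scaling, at -0.45 and -0.02. Of 16 commonly used reference genes, 9 were called higher and 3 lower, with a median of 0.19.

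**Figure D4:**
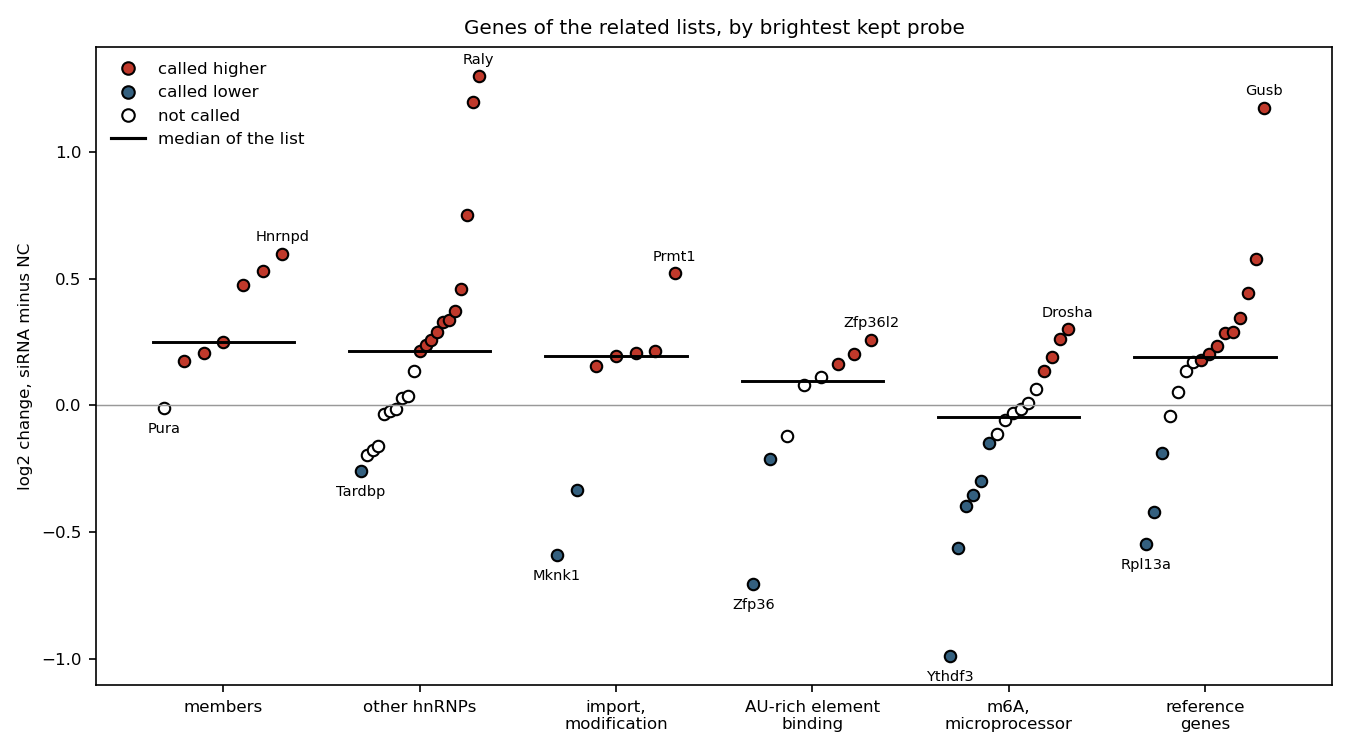
Log2 change, siRNA minus NC, of each gene by its brightest kept probe (y axis, 75th percentile scale) for the members and 5 lists, with red for called higher, blue for called lower, white for not called, and a line at each list's median. The medians of the members (0.25), the other hnRNPs (0.21) and the reference genes (0.19) lie close together, and spike-in scaling would lift every point by 0.54.

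Because so many probes moved, each member was also read relative to the median change of all tested probes, a difference that scaling by 1 factor per array cannot alter. On the scale reported here 17 of 19 member probes lay above that median. Median and spike-in scaling gave the same number, as they must with 1 factor per array. The count did depend on the reference probes. Against only the probes bright on all arrays, which include all 19 members, 14 of 19 lay above the median. The median of the members then stood 0.23 above it, beside 0.28 against all tested probes. Against the median of all tested probes, quantile normalization left 12 of 19 above and cyclic loess 13 of 19, while normexp put all 19 above. Hnrnpa3 2963, the highest, stood 0.72 above the median as reported and 0.55 above it after quantile normalization. Hnrnpa1 328, the lowest, stood at -0.34 as reported and -0.50 after quantile normalization, but at 0.08 with normexp.

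**Figure D5:**
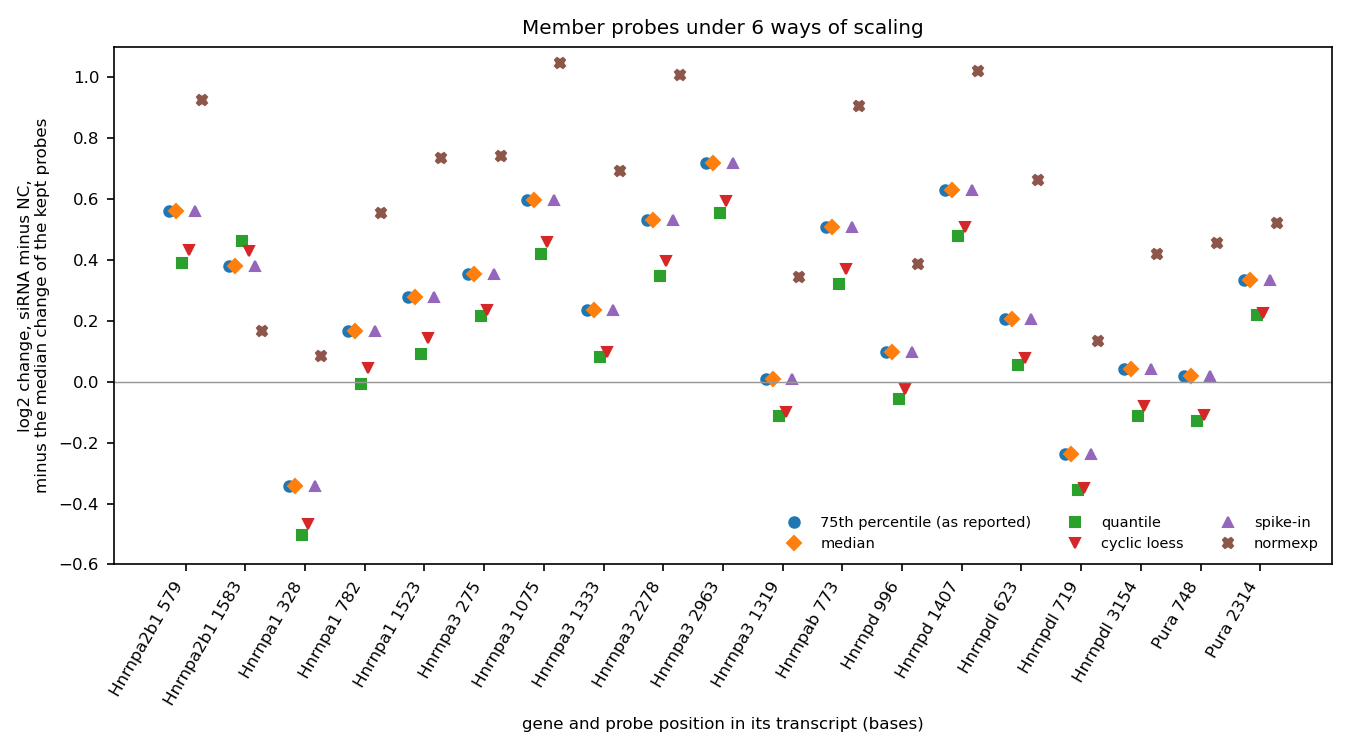
Log2 change, siRNA minus NC, of each member probe minus the median change of all tested probes (y axis) under 6 ways of scaling (symbols). The 3 that use 1 factor per array coincide, and quantile and cyclic loess lie below them at all probes except Hnrnpa2b1 1583. Normexp lies above them at all except Hnrnpa2b1 1583, and its value for Hnrnpa3 2963, 1.13, is beyond the top of the axis and not shown.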

How the data were processed

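The deposited scanner files, 1 per array, hold spot intensities. They were made with Agilent Feature Extraction 12.0.3.1, per the file headers (12.0 in the submitters' processing notes). Its processed intensity has background and spatial trend removed within each array and is not scaled between arrays. Control spots and spots marked as outliers were left out, log2 values were centred on each array's 75th percentile, and spots of a probe were averaged. limma 3.58.1 in R 4.3.3 fitted siRNA against NC over the 24853 probes well above background in 3 or more arrays of either group. On simulated data this fit recovered 10% of changes of 0.25, 52% of changes of 0.5 and 88% of changes of 1, on the log2 scale. Few probes were changed in that simulation, and 126 of 24853 were called, whereas 61.6% were called in the data. The adjustment was therefore stricter there, and these rates do not give the share of changes recovered in the data. Differences between probes of one gene were fitted the same way over 4801 pairs. Exact permutation tests used scipy 1.17.1 in Python 3.11.15. A series table deposited by the authors gives log2 values for 86 probes, none of them a member, and was not used here.

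The members and gene lists were chosen with earlier results of these data known. The genes named are every member probe, in each related list up to 2 called genes per direction with the largest change, and the 5 genes most like Hnrnpa2b1 579 over the arrays. Some genes and sequences that this rule covers are not reported here. Gene names came from the files' accessions and symbols through the RefSeq table of GRCr8. Sequences and rn4 positions come from the scanner files and promoter windows from RefSeq (GRCr8). Alternatives were other scalings, normexp (offset 50), filters, a replicate block, moderated variances and leaving out each array. The number of arrays limits the precision.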

Additional observations from a re-analysis of the deposited data

Results flagged for a closer look

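At Hnrnpdl 719, NC replicate 2 had a level of 1.96, against 1.786 to 1.787 in the other 3 NC arrays, so that its gap to them was 0.994 of the group's range. It was the only member probe and group with a single array set apart in this way, out of 38 groups of 4 arrays examined, of which chance alone flags about 1 in 20.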

How the results depend on the processing

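Leaving out 1 array at a time gave 10 to 13 member probes called (10 to 12 higher, 0 to 1 lower), 13591 to 15125 of all probes (6571 to 7343 higher, 7020 to 7782 lower), 20 to 24 related genes higher and 8 to 11 lower, 13 to 17 member pairs that differed, and 0 comparisons of Hnrnpa2b1 with other members, where 3 arrays against 4 cannot reach 0.05. Of the 15 called member probes 10, all higher, kept their call in all 8 such fits. The share of all tested probes that did so is not given here, so this count does not set the members apart. All 12 settings that keep every array called 5 member probes: Hnrnpa2b1 579, Hnrnpa3 1075, Hnrnpa3 2278, Hnrnpa3 2963 and Hnrnpd 1407. For this count too the share of all tested probes is not given. Nor is the share of all pairs of probes of one gene given for the alternative settings.

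Normexp, with or without spots dimmer than their local background, called 5 member probes higher and 0 lower, 3629 of all probes (1935 or 1936 higher, 1694 or 1693 lower), 5 related genes higher and 1 lower, and 9 member pairs. Spike-in scaling called 16358 probes higher and 2681 lower, 0 member probes lower, and 45 related genes higher and 1 lower. Median scaling over all probes, added after seeing the data, called 12949 higher and 4249 lower, 17 member probes higher and 0 lower, and 38 related genes higher and 3 lower. Median scaling over tested probes called 0 member probes and 7 related genes lower, beside 6841 of all 24853 tested probes. The fit with no filter called 0 member probes lower, beside 10504 of 41012 probes. Cyclic loess and the 75th percentile over bright probes each called 8 member probes higher, beside 7454 and 5977 of all 24853 tested probes. These settings and quantile normalization each called 15 related genes higher. Quantile normalization and cyclic loess, added for member pairs, each called 13 pairs and lost that of Hnrnpa3 275 and Hnrnpa3 1075 (adjusted p = 0.0727 and 0.0536). The fit without dimmer spots was also added after seeing the data, and the cause of these shifts was not tested.

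Signs turned mostly at probes with changes near 0. Hnrnpa2b1 1583 became -0.020 with normexp, Hnrnpa1 328 became 0.17 and Hnrnpdl 719 became 0.27 with spike-in scaling, and Hnrnpdl 719 became 0.037 with median scaling over all probes. The Hnrnpa2b1 579 change minus that of Hnrnpa2b1 1583 became -0.0704 with quantile normalization. Hnrnpa3 1319 became 0.048 with median scaling, 0.52 with spike-in scaling, 0.16 with normexp and 0.29 with median scaling over all probes, and ranged from -0.081 to 0.021 when 1 array was left out. Pura 748 became 0.057, 0.53, 0.27 and 0.30 under the same settings, and ranged from -0.046 to 0.037. Hnrnpd 996 became -0.034 with quantile normalization, -0.0335 with cyclic loess and -0.0095 with the 75th percentile over bright probes. Hnrnpdl 3154 became -0.088, -0.090 and -0.066 under these, and ranged from -0.0042 to 0.034 when 1 array was left out. The Hnrnpa2b1 change minus that of Hnrnpab became -0.13 with the other Hnrnpa2b1 probe and ranged from -0.016 to 0.13 when 1 array was left out, and that minus Hnrnpd ranged from -0.15 to 0.026.

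Deviations from the group means correlated at -0.03 to 0.21 between same-numbered arrays and at -0.13 to 0.09 between differently numbered ones. The highest value, 0.21, was that of the arrays numbered 4. These few values do not settle whether the numbers pair the arrays. With the replicate number as a block 12 member probes were called, 10 higher and 2 lower, and 15 member pairs differed. Of all 24853 tested probes that fit called 7097 higher and 7895 lower. Whether the scan, or a slide that goes with it, contributes cannot be told apart from the treatment. The authors' series table, the remaining alternative, was not run because it holds no member probe.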
